A study of Mus musculus with 17 samples.

Results

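Matrix metalloproteinases (MMPs) are zinc-dependent proteases that cut collagen and other proteins of the extracellular matrix, and the tissue inhibitors of metalloproteinases (TIMPs) bind their active sites. Most MMPs are secreted as inactive proenzymes, a few such as Mmp14 sit in the cell membrane, and activation by other proteases comes before cutting. In an infarcted heart, both sets of genes are used by the fibroblasts that clear the damaged matrix and build the scar. The genes described here were 9 named members, the proteases Mmp2, Mmp3, Mmp11, Mmp14, Mmp19 and Mmp23 and the inhibitors Timp1, Timp2 and Timp3, out of 31053 genes listed in the count table. Each symbol matched 1 gene of the table, and all 9 passed the filter on low counts with 14030 genes in all. No member came near the limit of detection, since the smallest count of any member in any library was 105 reads, for Mmp3.

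The libraries held RNA of fibroblasts from the hearts of C57BL/6 mice of genotype Collagen1a1-GFP+, aged 8 to 10 weeks, in which myocardial infarction (MI) was induced by permanent ligation of a coronary artery. Cells were sorted as GFP-positive, CD31- and CD45-, so that endothelial cells and leukocytes were gated out, and the reporter follows the Col1a1 promoter, so only cells that use it were collected. Each day post-infarction (dpi) had 3 libraries, except that 3 dpi had 4 and 5 dpi had 1, which makes 17 over the 6 days, and every group had been infarcted, so the comparisons are between days and not with an uninjured heart. Nothing in the labels ties a library to a single animal; the p-values measure the spread between these libraries. MARS-seq counts the 3′ ends of polyadenylated RNA, and levels are given as log2 CPM, which is each gene's share of the reads of its library, and on that scale a difference of 1 is a doubling.

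Libraries held 8021815 to 22029938 counts. The 6 fibroblast markers (Col1a1, Col1a2, Col3a1, Pdgfra, Dcn and Pdgfrb) summed to 11627 to 37740 CPM and were detected throughout, whereas the 10 leukocyte markers summed to 6.1 to 148.2 CPM, with Cd3e at 0 in every library, and the 5 endothelial markers to 15.3 to 55.6 CPM. Xist counts were 1005 or more, with at most 10 counts from Y-linked genes, in every library of 4 and 6 dpi, while every library of 3 and 5 dpi had at most 2 Xist counts and at least 402 Y-linked counts. The 2 dpi libraries and 1 dpi replicates 2 and 3 also had more Y-linked than Xist counts, and 1 dpi replicate 1 had more Xist. The latter held 1670 Xist and 84 Y-linked counts, more Y-linked counts than any library of 4 or 6 dpi. In 1 dpi replicate 2, 461 Xist counts stood beside 1455 Y-linked counts, so these 2 libraries match neither pattern in full. This pattern cannot be told apart from day in the comparison of 4 with 3 dpi. Days 2 and 3 shared 1 pattern, and so did days 4 and 6. In the comparison of 6 with 1 dpi the part of this pattern was not tested. The values of 1 dpi replicate 1 stand beside the results of Mmp3, Mmp23 and Timp1. For Mmp2 (8.30 log2 CPM), Timp2 (9.28) and Mmp19 (5.45), that library was the lowest of its day. The libraries that stood apart for members were 3 dpi replicate 2, lowest of its day for Mmp3 and highest for Timp1, and 4 dpi replicate 3, lowest of its day for Timp1. The column names of the 3 dpi libraries also had another form than those of all other days. Whatever that form stands for cannot be told apart from day in any comparison that includes 3 dpi.

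The genes lie on separate chromosomes except for Mmp11, Mmp19 and Timp3, which are all on chromosome 10. In GRCm38 coordinates of the annotation, Mmp3 spans chr9:7445822-7455975 on the plus strand, Mmp14 chr14:54431612-54445364 on the plus strand, Mmp19 chr10:128790910-128800824 on the plus strand, Mmp23 chr4:155650655-155653384 on the minus strand, Timp1 chrX:20870166-20874735 on the plus strand and Timp2 chr11:118301069-118355740 on the minus strand. The reads of 3 members can overlap those of a neighbour on the opposite strand, because 789 exonic bases of Mmp19 are shared with Tmem198b, 155 of Mmp11 with Chchd10 and 1733 of Timp3 with Syn3. Whether reads were counted by strand is not given in the sources used here, so the counts of these 3 genes carry that uncertainty. Syn3 reached at most 45 counts in any library, Tmem198b 609 and Chchd10 1087. Timp1 lies inside an intron of Syn1 and shared no exonic base with it.

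RefSeq promoter windows, the 250 bases before the annotated start in GRCm38.p6, were found for 7 of the 9 members, all except Mmp2 and Mmp19. The windows of Mmp3 and Timp1, the genes with the largest falls between 1 and 6 dpi, and of Mmp14, the membrane-bound protease, are shown 5′ to 3′, with capitals for the letters TGANTCA (the AP-1 motif), TATAAA (the TATA box) and GGGCGG (the GC box), searched on both strands. They cover chr9:7445572-7445821 (plus strand), chrX:20869916-20870165 (plus strand) and chr14:54431348-54431597 (plus strand), each ending just before the RefSeq start.
Mmp3: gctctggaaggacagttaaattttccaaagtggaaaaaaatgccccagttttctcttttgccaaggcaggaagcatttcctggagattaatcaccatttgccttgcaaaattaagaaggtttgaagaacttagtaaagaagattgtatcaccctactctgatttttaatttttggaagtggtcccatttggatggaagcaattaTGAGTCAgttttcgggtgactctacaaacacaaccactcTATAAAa
Timp1: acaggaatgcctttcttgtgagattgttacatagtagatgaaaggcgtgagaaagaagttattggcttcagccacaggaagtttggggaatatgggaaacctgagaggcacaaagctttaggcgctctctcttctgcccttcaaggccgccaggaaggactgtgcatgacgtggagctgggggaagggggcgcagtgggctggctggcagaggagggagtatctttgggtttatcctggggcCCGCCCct
Mmp14: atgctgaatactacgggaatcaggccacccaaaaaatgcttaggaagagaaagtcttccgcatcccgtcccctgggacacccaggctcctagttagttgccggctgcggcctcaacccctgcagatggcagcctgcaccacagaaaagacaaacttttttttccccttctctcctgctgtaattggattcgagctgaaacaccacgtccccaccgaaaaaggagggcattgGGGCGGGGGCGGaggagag
Among the members with a window, TGANTCA and TATAAA were found in that of Mmp3, 46 and 7 bases before the start, and in none of the others. Of 27025 genes with a promoter in the table, 6.87% held TGANTCA and 13% held TATAAA in windows of the same length. The GC box, held by 32.9% of genes, was found in Mmp11, Mmp14, Timp1, Timp2 and Timp3, with 2 matches in Mmp14, adjacent and 19 and 13 bases before the start, and 1 in Timp1, 8 bases before the start. A further set of letters, AGGAAG (the core of Ets motifs, held by 29.2% of genes), was found in Mmp3, Mmp14, Timp1 and Timp3. The Mmp3 window was 37.6% G and C with 1 CpG, against 54.4% to 68.0% with 6 to 21 CpGs in the other members' windows and medians of 52.0% and 6 over all promoters. None of the 4 motifs was found in either window of Mmp23. These are matches of letters in a fixed window and no measurement of binding.

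**Figure D1:**
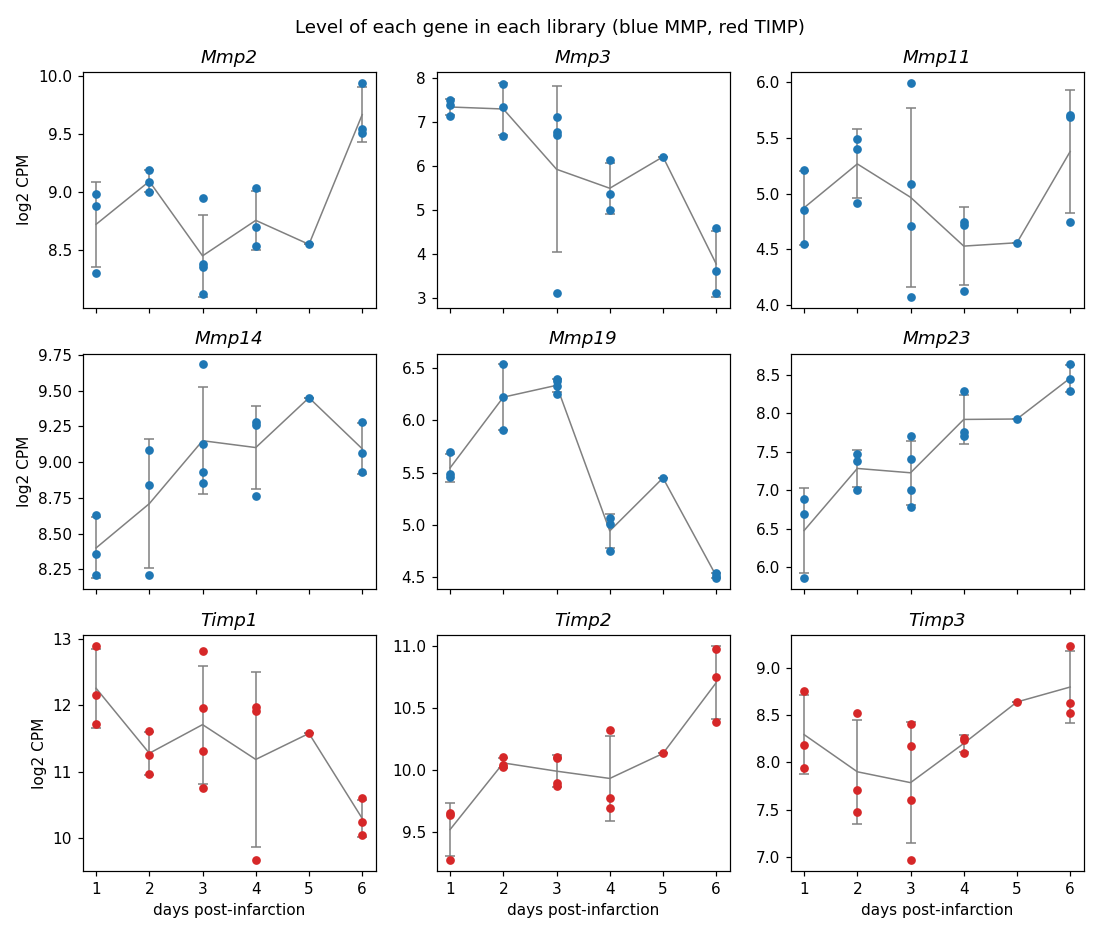
Level of each of the 9 genes (log2 CPM, vertical axes with separate ranges) against days post-infarction; points are libraries, grey lines join the day means and bars are SDs (5 dpi is 1 library). Mmp3, Mmp19 and Timp1 have their lowest day mean at 6 dpi, while Mmp2, Mmp11, Mmp23, Timp2 and Timp3 have their highest there.

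The first question was which members changed at any time from 1 to 6 dpi. All day terms tested together passed for 5 of the 9 members, namely Mmp19, Mmp23, Mmp3, Mmp2 and Timp2, whereas 15.0% of all genes tested passed. The edgeR quasi-likelihood adjusted p-values were 2.9e-05 for Mmp19, 0.002 for Mmp23, 0.0071 for Mmp3, 0.021 for Mmp2 and 0.038 for Timp2. Timp1 (edgeR adjusted p = 0.11), Mmp14 (0.18), Timp3 (0.23) and Mmp11 (0.4) did not pass. The calls of Mmp19, Mmp23 and Mmp3 held in each of the 16 fits that left out 1 library. That of Mmp2 was lost without 6 dpi replicate 1 (edgeR adjusted p = 0.13) or replicate 2 (0.052). That of Timp2 was lost in 13 of the 16 fits and held only without 3 dpi replicate 2, 4 dpi replicate 3 or 6 dpi replicate 3, with edgeR adjusted p-values up to 0.18. Timp1 passed without 3 dpi replicate 2 (edgeR adjusted p = 0.044), without 4 dpi replicate 3 (0.032) and by DESeq2 (adjusted p = 0.015). It also passed with every gene of at least 1 count tested (edgeR adjusted p = 0.00013). That setting shifted p-values far and both ways, with Mmp3 at 4.8e-29 and Timp2 at 0.11.

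Comparing 6 with 1 dpi gave the widest set of changes, with 6 of the 9 members passing, 3 lower and 3 higher at 6 dpi. Over all genes tested 12.1% passed, 6.91% higher and 5.21% lower. Libraries of the 2 days did not overlap for 7 of the 9 members, against 32.5% of all genes. Mmp3, Timp1 and Mmp19 fell and Mmp23, Timp2 and Mmp2 rose, so each direction held both proteases and an inhibitor. Mmp14, Mmp11 and Timp3 were not past the threshold, with fitted differences of 0.69 (edgeR adjusted p = 0.12), 0.54 (0.37) and 0.50 (0.38). DESeq2 called Mmp14 as well, at 0.73 (adjusted p = 0.048). The median difference was 0.62 over the 6 proteases and 0.50 over the 3 inhibitors, against 0.03 over all genes. These medians rest on members that did not pass, Mmp14 and Mmp11 for the proteases and Timp3 for the inhibitors. The members that passed ran from -3.45 (Mmp3) to 1.93 (Mmp23), so the medians do not show that either set rose as a whole.

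Mmp3, stromelysin 1, a secreted protease that degrades proteoglycans and other noncollagenous matrix proteins and activates other pro-MMPs, had the largest change. Its levels were 7.49, 7.39 and 7.14 log2 CPM in the 1 dpi libraries and 7.86, 7.34 and 6.67 at 2 dpi. At 3 dpi they were 7.10, 3.10, 6.77 and 6.71 in replicates 1 to 4. The low value was that of 3 dpi replicate 2, 105 counts against 983 to 1551 in the other libraries of that day. At 4 dpi Mmp3 stood at 6.13, 5.35 and 4.99, in the 5 dpi library at 6.20 and at 6 dpi at 3.11, 3.61 and 4.58. Apart from that library, every value before 6 dpi was above every value at 6 dpi. Between 1 and 6 dpi Mmp3 fell by 3.45 on the log2 scale (SE 0.64, edgeR adjusted p = 0.0019), an 11-fold difference. Among the 1 dpi libraries, replicate 1, which had more Xist than Y-linked counts but matches neither pattern in full, was the highest at 7.49.

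The day means of Mmp3 at 1 and 2 dpi differed by 0.05 with overlapping libraries, and those of 4 and 6 dpi by 1.72 with libraries apart, although the latter difference did not pass (edgeR adjusted p = 0.14). The mean over 3, 4 and 5 dpi was lower than that over 1 and 2 dpi by 1.27 (SE 0.44, edgeR adjusted p = 0.086). Leaving out 3 dpi replicate 2 put that difference at -1.14 and past the threshold (edgeR adjusted p = 0.0064). The same step made Mmp3 pass between 4 and 3 dpi at -1.30 (edgeR adjusted p = 0.037) and between 6 and 4 dpi at -1.68 (0.02).

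Mmp19, a secreted protease that cuts several basement membrane and matrix proteins, was the member with the smallest adjusted p over the time course. It was measured at 5.45, 5.48 and 5.70 log2 CPM at 1 dpi, at 6.22, 6.53 and 5.91 at 2 dpi and at 6.25, 6.39, 6.37 and 6.32 at 3 dpi. It stood at 4.76, 5.07 and 5.01 at 4 dpi, 5.45 at 5 dpi and 4.49, 4.51 and 4.54 at 6 dpi. The 3 dpi libraries were therefore all above those of 1, 4, 5 and 6 dpi and within the range of 2 dpi, and the 6 dpi libraries were below every other library. Between 3 and 4 dpi Mmp19 fell by 1.39 on the log2 scale (SE 0.20, edgeR adjusted p = 0.001), 2.62-fold, and it was the 1 member of 9 past the threshold in that step, where 2.71% of all genes were, and 1.08% as lower. It was also the 1 member whose libraries did not overlap there, against 16.7% of all genes. The 4 dpi libraries, which carry the Xist pattern, were also below all 2 dpi libraries, and the 5 dpi library, which carries the Y-linked pattern of 3 dpi, was 5.45, below all 3 dpi libraries and above all 4 dpi libraries.

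Between 1 and 6 dpi Mmp19 fell by 1.04 on the log2 scale (SE 0.21, edgeR adjusted p = 0.0038). The values of 1 and 2 dpi did not overlap, with a fitted difference of 0.69 (SE 0.21) that did not pass (edgeR adjusted p = 0.35). The highest day mean was that of 3 dpi, and it moved to 2 dpi without 2 dpi replicate 3, so the order of these neighbouring days is within their spread. Over 3, 4 and 5 dpi together Mmp19 was lower than over 1 and 2 dpi by 0.32 (edgeR adjusted p = 0.23), and without the 3 dpi libraries by 0.70 (0.034), the 3 dpi level being high and those of 4 and 5 dpi low.

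Mmp23 encodes an unusual MMP anchored in membranes by its amino-terminal end and released by furin-type cleavage. Its levels were 5.85, 6.88 and 6.69 log2 CPM at 1 dpi, 7.00, 7.38 and 7.47 at 2 dpi and 6.78, 7.71, 7.41 and 7.01 at 3 dpi. They were 7.76, 7.71 and 8.30 at 4 dpi, 7.93 at 5 dpi and 8.64, 8.45 and 8.29 at 6 dpi. The order of day means ran from 1 dpi, the lowest, through 3, 2, 4 and 5 to 6 dpi, with 2 and 3 dpi overlapping and 4 and 6 dpi overlapping by 1 library. Between 1 and 6 dpi Mmp23 rose by 1.93 on the log2 scale (SE 0.30, edgeR adjusted p = 0.00043), 3.81-fold. Replicate 1 of 1 dpi, with more Xist than Y-linked counts and matching neither pattern in full, was the lowest of all 17, at 5.85.

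Mmp23 was also 1 of the 2 members past the threshold when 3, 4 and 5 dpi were set against 1 and 2 dpi, the days around the activation of reparative fibroblasts that the study asks about. In that comparison 7.48% of all genes passed, and 5.25% passed as higher. Mmp23 was higher by 0.80 (SE 0.21, edgeR adjusted p = 0.022), and the call was lost without 1 dpi replicate 1 (0.66, edgeR adjusted p = 0.065) or 2 dpi replicate 1 (0.72, 0.069). Libraries of the 2 sets overlapped for every member, against 2.31% of genes without overlap.

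The other member was Mmp14, MT1-MMP, the membrane-bound collagenase that activates pro-Mmp2 at the cell surface. It stood at 8.21, 8.36 and 8.63 log2 CPM at 1 dpi, 9.08, 8.84 and 8.21 at 2 dpi and 8.86, 9.69, 9.13 and 8.93 at 3 dpi. It stood at 9.28, 9.26 and 8.76 at 4 dpi, 9.45 at 5 dpi and 9.28, 9.07 and 8.93 at 6 dpi. All values from 3 dpi on were above all those of 1 dpi, and the 2 dpi libraries spanned both ranges. Mmp14 was higher over 3, 4 and 5 dpi by 0.67 (SE 0.20, edgeR adjusted p = 0.047), near the threshold. Leaving out 1 library lost that call in 11 of 16 fits, with estimates from 0.57 to 0.72. The call held only without 2 dpi replicate 1, 3 dpi replicates 1 or 2, 4 dpi replicate 3 or 6 dpi replicate 3. Each day weighed the same in this comparison, so the 1 library of 5 dpi counted as much as the 4 of 3 dpi. Without the 5 dpi library the difference of Mmp14 was 0.57 (edgeR adjusted p = 0.091) and that of Mmp23 0.69 (0.048). A further fit kept only libraries in which Y-linked counts exceeded those of Xist, and no 4 dpi library was among them. It therefore set 3 dpi and the 1 library of 5 dpi, each day weighing the same, against 1 and 2 dpi. Replicate 2 of 1 dpi, which matches neither pattern in full, was kept. In that fit Mmp14 differed by 0.69 (edgeR adjusted p = 0.14) and Mmp23 by 0.56 (0.19), and neither passed. The days compared also changed, so the part of the pattern in these calls was not tested.

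Mmp2, gelatinase A, which cuts denatured collagen and basement membrane collagen, was measured at 8.30, 8.88 and 8.99 log2 CPM at 1 dpi, 9.0, 9.19 and 9.09 at 2 dpi and 8.35, 8.95, 8.38 and 8.12 at 3 dpi. It was at 8.70, 8.54 and 9.03 at 4 dpi, 8.55 at 5 dpi and 9.95, 9.55 and 9.51 at 6 dpi. The 3 libraries of 6 dpi were above every other library, and the 3 dpi libraries were all below those of 2 dpi. Between 1 and 6 dpi Mmp2 rose by 0.93 on the log2 scale (SE 0.27, edgeR adjusted p = 0.03). That call was lost without 1 dpi replicate 1 (0.74, edgeR adjusted p = 0.15), 1 dpi replicate 2 (0.99, 0.065), 6 dpi replicate 1 (0.78, 0.14) or 6 dpi replicate 2 (0.99, 0.06). From 2 to 3 dpi the fitted difference was -0.61 (edgeR adjusted p = 0.19), and without 3 dpi replicate 2 it was -0.81 and passed (0.043).

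Mmp11, stromelysin 3, a protease that furin-type enzymes activate inside the cell, passed in no comparison. Its levels ran from 4.07 to 5.99 log2 CPM, both at 3 dpi, so the libraries of that single day spanned the whole range of the time course. Its day means were 4.87 ± 0.33 (SD, n = 3) at 1 dpi, 5.27 ± 0.31 (n = 3) at 2 dpi, 4.97 ± 0.80 (n = 4) at 3 dpi, 4.53 ± 0.35 (n = 3) at 4 dpi and 5.38 ± 0.55 (n = 3) at 6 dpi. No pair of neighbouring days in that order had separate libraries.

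Among the inhibitors, Timp1, which many cell types induce on injury, had the widest range of day means. Its levels were 12.89, 11.72 and 12.15 log2 CPM at 1 dpi, 11.61, 10.97 and 11.25 at 2 dpi and 11.96, 12.82, 10.75 and 11.31 at 3 dpi. They were 11.97, 11.91 and 9.67 at 4 dpi, 11.58 at 5 dpi and 10.04, 10.24 and 10.60 at 6 dpi. The 6 dpi libraries were below all others except 4 dpi replicate 3, which was the lowest of the 17. Between 1 and 6 dpi Timp1 fell by 2.02 on the log2 scale (SE 0.53, edgeR adjusted p = 0.018), 4.07-fold. The call was lost without 1 dpi replicate 1 (-1.65, edgeR adjusted p = 0.087), 6 dpi replicate 1 (-1.90, 0.085) or 6 dpi replicate 2 (-1.99, 0.072). Timp1 is on the X chromosome. Of the libraries with more Xist than Y-linked counts, 1 dpi replicate 1 was the highest at 12.89 and 4 dpi replicate 3 the lowest at 9.67.

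Timp2, which inhibits MMPs and also forms the complex with Mmp14 through which pro-Mmp2 is activated, went the other way. It was at 9.28, 9.65 and 9.64 log2 CPM at 1 dpi, 10.05, 10.10 and 10.02 at 2 dpi and 9.87, 10.11, 10.10 and 9.90 at 3 dpi. It was at 9.70, 9.78 and 10.32 at 4 dpi, 10.13 at 5 dpi and 10.75, 10.97 and 10.39 at 6 dpi. The 1 dpi libraries were below all others and the 6 dpi libraries above all others. Timp2 rose by 1.19 on the log2 scale between 1 and 6 dpi (SE 0.26, edgeR adjusted p = 0.0053), 2.28-fold, and the call held in all 16 fits without 1 library, as did those of Mmp3, Mmp19 and Mmp23.

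Timp3, the inhibitor that binds to the matrix and also blocks ADAM proteases, passed in no comparison. Its day means were 8.30 ± 0.42 (SD, n = 3) at 1 dpi, 7.90 ± 0.55 (n = 3) at 2 dpi, 7.79 ± 0.64 (n = 4) at 3 dpi, 8.20 ± 0.09 (n = 3) at 4 dpi and 8.80 ± 0.38 (n = 3) at 6 dpi. The lowest library was 3 dpi replicate 2 at 6.97 and the highest 6 dpi replicate 3 at 9.23. Libraries of 4 and 6 dpi did not overlap, with a fitted difference of 0.63 (edgeR adjusted p = 0.32).

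**Figure D2:**
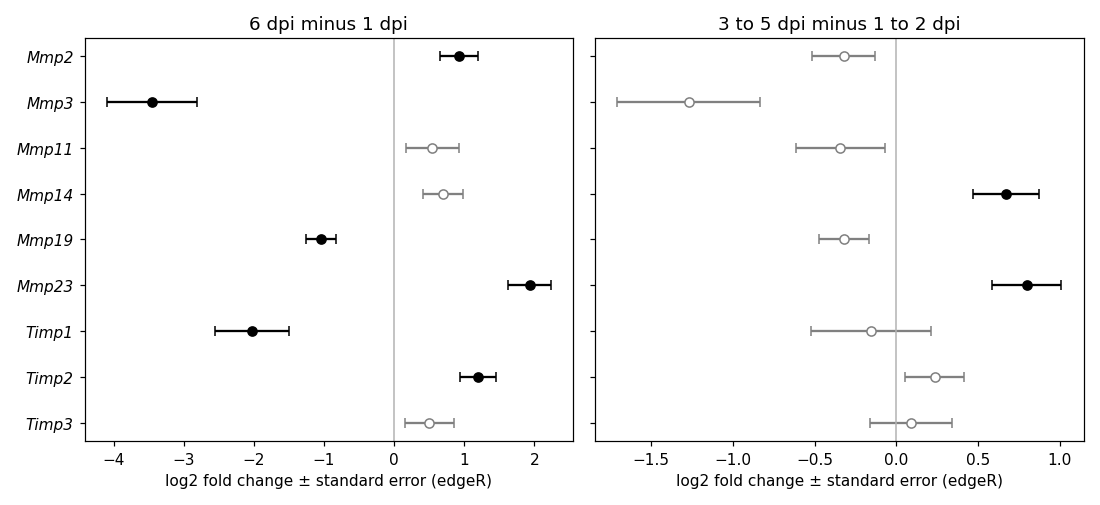
Log2 fold change of each gene (horizontal axes, bars are SEs of the edgeR fit) for 6 against 1 dpi on the left and for 3, 4 and 5 dpi against 1 and 2 dpi on the right; filled black points passed an adjusted p of 0.05. On the left Mmp3, Timp1 and Mmp19 lie below 0 and Mmp23, Timp2 and Mmp2 above, and on the right Mmp14 and Mmp23 passed.

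Steps between neighbouring days held fewer calls, and the shares of all genes given beside them shift strongly when 1 library is left out, most of all from 4 to 6 dpi, where 3 to 1402 genes passed. From 1 to 2 dpi edgeR called 0 of 9 members (0.178% of all genes), with 2 members, Mmp19 and Mmp23, at an unadjusted p under 0.05 and 0 called by DESeq2. In that step 5 members, Mmp2, Mmp19, Mmp23, Timp1 and Timp2, had libraries that did not overlap, against 15.1% of all genes. From 2 to 3 dpi edgeR called 0 members (2.94% of all genes), with Mmp2 the 1 member under 0.05 unadjusted and 0 called by DESeq2. Mmp2 was also the 1 member without overlap there, against 18.6% of all genes. From 4 to 6 dpi edgeR called 0 members (0.513% of all genes), with Mmp2, Mmp3, Mmp11, Timp1 and Timp2 under 0.05 unadjusted and 2, Mmp2 and Timp2, called by DESeq2 (adjusted p = 0.014 and 0.02). In that last step 5 members did not overlap, namely Mmp2, Mmp3, Mmp19, Timp2 and Timp3, against 21.6% of all genes.

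The balance of protease to inhibitor was described in each library in 2 ways, with no test because the genes were chosen. Reads of different genes are compared here without regard to length or to protein activity, so the level of the balance has no meaning of its own and only its change over days is read. With each gene weighing the same (the mean log2 CPM of the 6 proteases minus that of the 3 inhibitors), the balance was -3.13 ± 0.47 (SD, n = 3) at 1 dpi, -2.44 ± 0.18 (n = 3) at 2 dpi, -2.82 ± 0.27 (n = 4) at 3 dpi, -2.98 ± 0.28 (n = 3) at 4 dpi, -3.09 in the 5 dpi library and -3.12 ± 0.20 (n = 3) at 6 dpi. On this scale the mean of 2 dpi was highest, with all 3 libraries above those of 1 dpi, and 6 dpi lay within the range of 1 dpi.

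With the CPM of each set summed, so that the genes with most reads weigh most, the log2 ratio was -2.46 ± 0.69 (n = 3) at 1 dpi, -1.44 ± 0.21 (n = 3) at 2 dpi, -1.89 ± 0.48 (n = 4) at 3 dpi, -1.56 ± 0.65 (n = 3) at 4 dpi, -1.65 at 5 dpi and -0.93 ± 0.30 (n = 3) at 6 dpi. The 6 dpi libraries were then the highest except for 4 dpi replicate 3, at -0.81, which fell within their range of -1.12 to -0.59. The difference between 6 and 1 dpi was thus 0.01 by the first definition, or -0.25 to 0.18 when 1 library was left out, and 1.53 by the second. Timp1 made up 81.6% ± 5.85 (SD, n = 3) of the summed inhibitor CPM at 1 dpi and 37.2% ± 6.33 (n = 3) at 6 dpi, with libraries at 76.3% to 87.9% and 33.5% to 44.5%. The 4 dpi library with low Timp1 held 34.3%, against 78.0% and 76.5% in the other 4 dpi libraries.

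**Figure D3:**
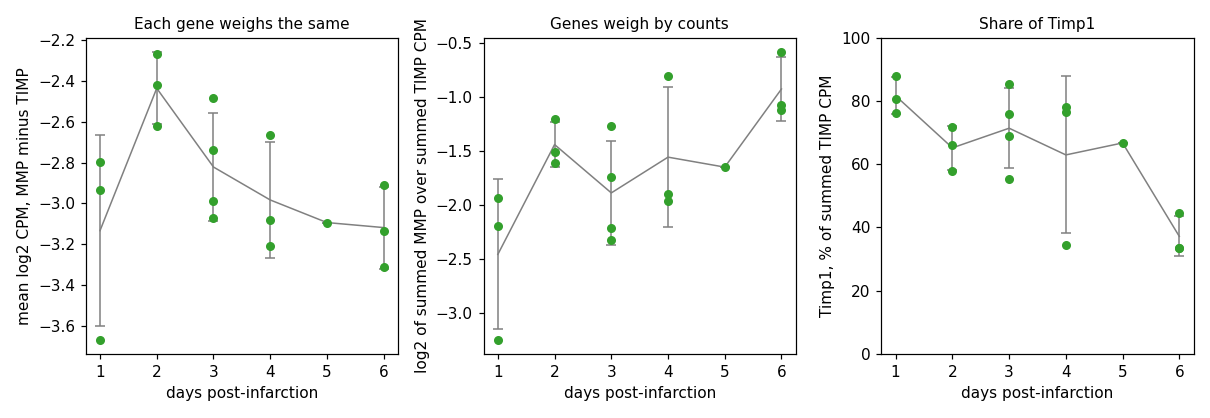
Balance of protease to inhibitor in each library against days post-infarction, as the difference of mean log2 CPM (left), as the log2 ratio of summed CPM (middle), and the share of Timp1 in the summed inhibitor CPM in percent (right); points are libraries, lines join day means and bars are SDs (5 dpi is 1 library). The left panel has its highest mean at 2 dpi (-2.44) and the middle one at 6 dpi (-0.93), where the share of Timp1 is lowest (37.2%).

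Ratios of a protease to an inhibitor within a library were also described, with those of Mmp19 and Mmp23 added after the other values were seen. Relative to Timp1, Mmp2 went from -3.53 ± 0.93 (SD, n = 3) at 1 dpi to -0.63 ± 0.50 (n = 3) at 6 dpi, a change of 2.91 on the log2 scale with libraries apart. Mmp14 over Timp1 changed by 2.65 and Mmp11 over Timp1 by 2.46, also with libraries apart. Each ratio over Timp1 contains the same fall of Timp1, 2.02 in the fit, and Mmp14 and Mmp11 did not pass by themselves. The share of pairs apart was not computed for other genes, and 32.5% of single genes were apart between these days. Relative to Timp2, the same proteases changed by -0.23 (Mmp2, libraries overlapping), -0.49 (Mmp14, apart) and -0.68 (Mmp11, apart). The inhibitors themselves shifted against each other by 3.14, since Timp2 over Timp1 went from -2.73 ± 0.80 (n = 3) to 0.41 ± 0.54 (n = 3). The direction of a protease to inhibitor ratio thus depended, for Mmp14 and Mmp11, on which inhibitor it was taken over.

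Mmp3 was lower, and Mmp23 higher, at 6 than at 1 dpi relative to each inhibitor. The ratio of Mmp3 changed by -1.61 over Timp1, by -4.75 over Timp2 and by -4.07 over Timp3, with libraries apart in each case. That of Mmp23 changed by 3.95 over Timp1, by 0.81 over Timp2 and by 1.48 over Timp3, also with libraries apart. Mmp19 changed by 0.93 over Timp1, by -2.21 over Timp2 and by -1.53 over Timp3, again with libraries apart, so its direction differed between inhibitors. Over Timp3 the pairs of the other proteases changed by 0.44 (Mmp2), 0.19 (Mmp14) and 0.00 (Mmp11) and overlapped. Mmp2 and Timp2 were the closest of all pairs of members across the 17 libraries, their centred log2 CPM differing by a root mean square of 0.33. The measure was not scaled by spread, so genes that vary little can come out close. The SDs over the libraries were 0.49 for Mmp2 and 0.41 for Timp2.

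**Figure D4:**
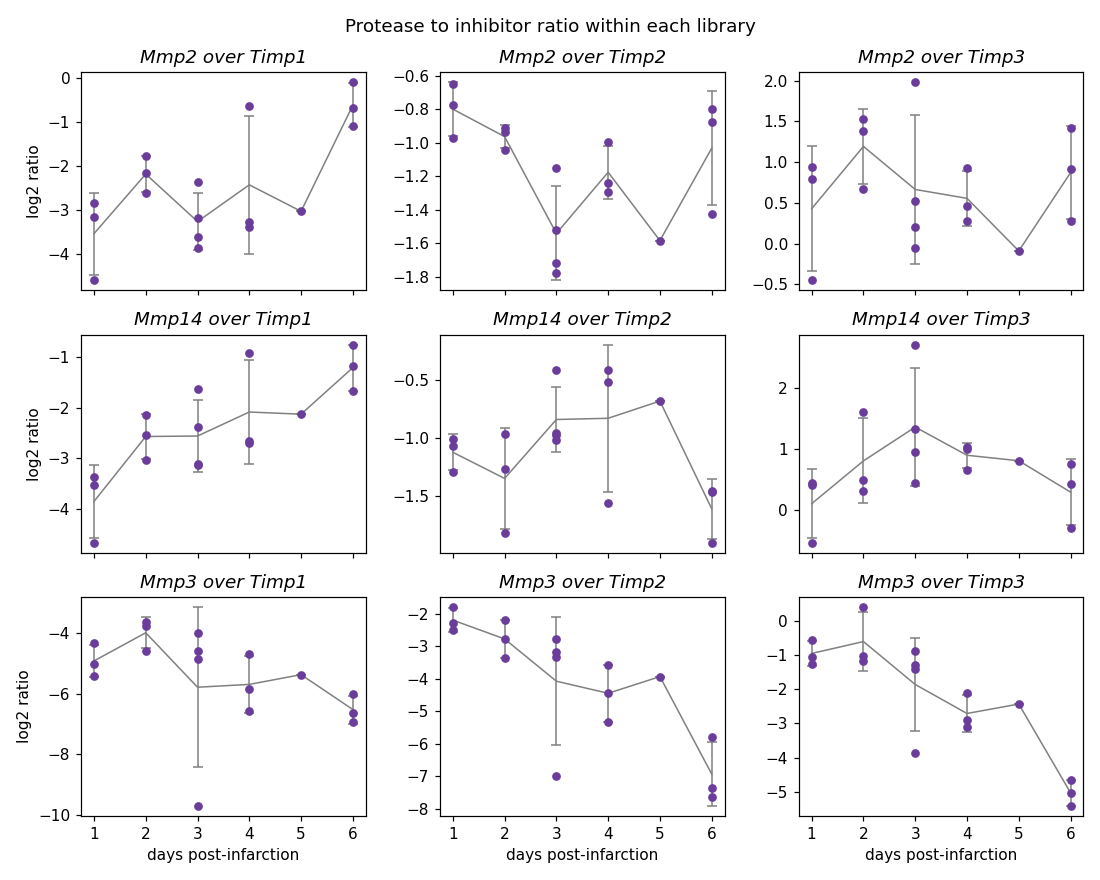
Log2 ratio of Mmp2, Mmp14 and Mmp3 (rows) to Timp1, Timp2 and Timp3 (columns) within each library against days post-infarction; points are libraries, lines join day means and bars are SDs (5 dpi is 1 library). Mmp2 and Mmp14 over Timp1 change by 2.91 and 2.65 from 1 to 6 dpi, while Mmp3 is lower at 6 dpi over all 3 inhibitors.

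The genes nearest to each member were those with the smallest root mean square difference of centred log2 CPM over the 17 libraries, among 8918 genes with a mean of at least 100 counts. For Mmp2 these were Vangl1 (0.20), Npr2 (0.21) and Tecpr1 (0.22), and for Timp2 Scrn1 (0.15), Cd81 (0.18) and Trafd1 (0.20). Mmp23 was nearest to Pdgfrl (0.29), Sparc (0.32) and Tmem106c (0.32), and Mmp14 to Nxn (0.22), Adamts2 (0.23) and Arfgap3 (0.24). Mmp19 was nearest to Man2a1 (0.31), Slit3 (0.35) and Elf1 (0.36), and Timp1 to Mak16 (0.42), Cct3 (0.44) and Slc39a14 (0.44). Mmp3 was nearest to Cfhr2 (0.67), Trib3 (0.82) and Errfi1 (0.86). Its own SD over the libraries was 1.57, against 0.41 (Timp2) to 0.91 (Timp1) for the other members. The measure was not scaled by that spread, so its values are not comparable between members.

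Of 18 further MMP and TIMP genes, 17 were in the table and 8 had enough counts to be tested. None of the 8 passed in any edgeR comparison, while 15.0% of all genes passed over the time course and 12.1% for 6 against 1 dpi. Mmp8, Mmp9 and Timp4 had median counts of 0, 4 and 3, which leaves little room for a change to pass. In each comparison 0 to 2 of them had an unadjusted p under 0.05, and DESeq2 called Mmp27 and Timp4 over the time course and Timp4 for 4 against 3 dpi. Mmp1b, Mmp7, Mmp20 and Mmp21 were at 0 in all 17 libraries, so reads allow at most 0.136 to 0.374 CPM, the level of 3 counts. Mmp8, the neutrophil collagenase, reached at most 19 counts, Mmp9, the gelatinase of myeloid cells, 30 counts and Mmp13, the rodent interstitial collagenase, 6. The highest Mmp9 counts, 26 and 30, were in 3 dpi replicates 2 and 4. Timp4, the inhibitor most used by heart muscle, ranged from 0 to 101 counts, the highest in 3 dpi replicate 3.

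Among 15 genes that activate, inhibit or clear MMPs, 14 were tested and 4 passed over the time course, against 15.0% of all genes. These were Plaur, Adam15, Pcsk5 and Thbs2, with edgeR adjusted p-values of 0.00056, 0.0047, 0.018 and 0.021. Of all genes, 12.1% passed for 6 against 1 dpi and 7.48% for 3, 4 and 5 dpi against 1 and 2 dpi. Plaur, the receptor that focuses plasminogen activation on the cell surface, fell by 2.74 on the log2 scale between 1 and 6 dpi (SE 0.36, edgeR adjusted p = 9.1e-05). Thbs2, a matricellular protein that helps clear Mmp2, rose by 1.14 (SE 0.33, edgeR adjusted p = 0.03), and Adam15, a membrane-bound disintegrin metalloproteinase, by 1.00 (SE 0.31, 0.045). From 3 to 4 dpi Thbs2 rose by 1.14 (SE 0.30, edgeR adjusted p = 0.048), with 6.92, 6.11, 6.93 and 6.72 log2 CPM at 3 dpi below 7.84, 7.95 and 7.72 at 4 dpi. Pcsk5, a proprotein convertase of the furin type, was lower over 3, 4 and 5 dpi than over 1 and 2 dpi by 1.13 (SE 0.23, edgeR adjusted p = 0.0032) and Plaur by 0.96 (SE 0.25, 0.02). Pcsk5 also fell by 1.13 on the log2 scale from 2 to 3 dpi (SE 0.28, edgeR adjusted p = 0.034), with libraries apart. Furin, Reck, Lrp1 and Adam17 passed in no edgeR or DESeq2 comparison, while Bsg (over the time course) and Adam10 (4 against 3 dpi) passed by DESeq2 and not by edgeR.

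Other measures moved with the days compared. The summed fibroblast markers were 11627 to 17227 CPM at 1 dpi and 20816 to 30192 at 6 dpi, and the 6 cardiomyocyte markers 19.1 to 38.9 CPM at 1 dpi and 81.3 to 186.0 at 6 dpi, with no marker of that list at 0 in all libraries. At 3 dpi the cardiomyocyte sum was 9.0 to 12.6 and at 4 dpi 46.4 to 75.0, beside the fall of Mmp19, while the 10 leukocyte markers summed to 13.8 to 148.2 at 3 dpi and 8.2 to 24.9 at 4 dpi. The 10 genes of the response to tissue dissociation summed to 7320 to 8948 CPM at 3 dpi and 4993 to 7233 at 4 dpi, and mitochondrial genes took 0.32% to 0.78% of counts at 3 dpi and 1.22% to 2.04% at 4 dpi, so both measures also separated these days. Between 1 and 6 dpi both overlapped, the mitochondrial share only through 6 dpi replicate 3. That share was 1.45% to 1.86% at 1 dpi and 0.46%, 0.42% and 1.71% in 6 dpi replicates 1 to 3. The 5 mural markers summed to 20.8 to 54.0 CPM at 1 dpi and 85.2 to 96.6 at 6 dpi. The part of these measures in the results for MMPs and TIMPs was not tested, and in bulk RNA fewer cells of a type cannot be told apart from less RNA per cell. In 3 dpi replicate 2, where Mmp3 was low, the leukocyte sum was 13.8 CPM, the lowest of its day, and the fibroblast sum 37740, the highest of all 17 libraries.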

How the data were processed

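Sorted fibroblasts of infarcted hearts were profiled by bulk MARS-seq in 17 libraries. Per the labels and the study's methods, the authors used bcl2fastq 1.2.4 for demultiplexing and STAR for alignment against mm10, and made raw gene counts with featureCounts on the Ensembl annotation. No collapsing of PCR copies is named, so the limits set by 3 counts cover counting error only, while SDs and SEs come from the spread between libraries. The counts were deposited as 1 table without normalization and its 17 columns were matched to samples by name. The 3 dpi columns had names of another form than those of all other days, which shared a numbered series. What this difference stands for is not given.

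Days came from the labels, and the 5 dpi library is replicate 3 by its title but 1 by its description and column name; the title was followed. Genes that reached 10 counts in 3 or more libraries (14030 of 31053) were tested with edgeR 4.0.16 (quasi-likelihood F-test, TMM scaling, Benjamini-Hochberg adjustment over all genes tested, threshold 0.05), with day as a factor of 6 levels over all 17 libraries. The study used DESeq2, run here (1.42.0) as an alternative, as were other scalings and filters, a replicate block and leaving out each library. Levels are log2 CPM on TMM library sizes with a prior count of 2. Members, gene lists and comparisons were chosen with earlier results of these data known. The text names all 9 members, and those genes of the lists of other MMP and TIMP genes and of regulators that passed over the time course or are given as counts. Mmp8, Mmp9, Mmp13, Timp4, the genes at 0 and the regulators that did not pass were chosen after their values were seen. A gene of the regulator list is not reported here. The script was tested on simulated data. Sequences are from RefSeq (GRCm38.p6). R 4.3.3 and Python 3.11.15 were used.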

Additional observations from a re-analysis of the deposited data

Results flagged for a closer look

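Mmp3 in 3 dpi replicate 2 stood at 3.10 log2 CPM, against 6.71 to 7.10 in the other 3 libraries of that day. The gap was 0.902 of the whole range of the 4 libraries, above the critical value of Dixon's test. The same check on the other 8 members and on the balance found no other library so far from the rest, 1 of 10 measures in all, where chance gives about 0.5 since it picks about 1 in 20. In that library Mmp3 was near its 6 dpi levels of 3.11 to 4.58, while Mmp19 (6.39) lay beside the 6.25 to 6.37 of the other 3 dpi libraries and Timp1 (12.82) was the second highest of all libraries.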

How the results depend on the processing

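The number of members past the threshold over the time course was 5, and 3 with the replicate number as a replicate block (Mmp2, edgeR adjusted p = 0.062, and Timp2, 0.08, were lost). Deviations from the day means had a mean correlation of 0.011 over 30 pairs sharing a number and -0.005 over 72 others. Of 16 libraries, 8 correlated best with one of their own number, and the number expected by chance was not computed. Whether the numbers pair the libraries was not tested. The block changed no other member's call. For 3, 4 and 5 dpi against 1 and 2 dpi the number was 2. It was 1 in a fit on only the days compared and 1 without the 5 dpi library. It was 0 in the fit on libraries where Y-linked counts exceeded those of Xist, which held no 4 dpi library. That alternative was chosen after seeing the data, as was the time course without the 3 dpi libraries (Timp1, edgeR adjusted p = 0.049). Testing every gene with at least 1 count gave 1 member for 3 against 2 dpi, 2 for 4 against 3 dpi and 2 for 6 against 4 dpi, where DESeq2 gave 2 others (Mmp3 and Timp1 with every gene, Mmp2 and Timp2 by DESeq2). With every gene, Timp1 passed over the time course (edgeR adjusted p = 0.00013) and Timp2 did not (0.11). For 3 to 5 dpi Mmp3 passed (edgeR adjusted p = 4.3e-07) and Mmp14 did not (0.058). The estimate of Mmp3 was -1.29 there and -1.27 in the main fit, so the p-value moved and the difference hardly did. Leaving out 1 library gave 3 to 6 members over the time course, 0 to 3 for the 3 to 5 dpi comparison, 0 for 2 against 1 dpi, 0 to 1 for 3 against 2 dpi, 1 to 2 for 4 against 3 dpi, 0 to 2 for 6 against 4 dpi and 4 to 6 for 6 against 1 dpi.

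The balance between 6 and 1 dpi was 0.01 with each gene weighing the same, 1.53 with summed CPM, 0.71 without Mmp3, -0.40 without Mmp23, -0.92 without Timp1, 0.65 without Timp2 and 0.31 without Timp3. That of 3 to 5 dpi minus 1 and 2 dpi was -0.18 with each gene weighing the same (-0.32 to -0.10 without 1 library) and 0.25 with summed CPM. On raw library sizes the highest day of Mmp11 was 2 in place of 6, and the range of the day means of Mmp19 was 1.99 in place of 1.82. Leaving out 1 library moved the highest day of Mmp3 between 1 and 2, of Mmp11 between 2 and 6, of Mmp19 between 2 and 3 and of Timp3 between 5 and 6. No called member changed direction under any alternative.

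Over all genes, the number past the threshold over the time course was 2099, against 3757 by DESeq2 and 3729 with every gene. For 2 against 1 dpi it was 25, against 104 and 153, 10 with at least 10 counts in every library and 63 in a fit on only the days compared. For 3 against 2 dpi it was 412, against 1033 and 980, 174 with the block and 252 on the days compared. For 4 against 3 dpi it was 380, against 857 and 866, 243 with the block and 125 on the days compared. For 6 against 4 dpi it was 72, against 759 and 882, 140 with the stricter filter, 28 with the block and 14 on the days compared. Leaving out 1 library gave 1307 (without 6 dpi replicate 1) to 3466 genes (3 dpi replicate 2) over the time course, 46 (2 dpi replicate 2) to 734 (3 dpi replicate 2) for 3 against 2 dpi, 126 (4 dpi replicate 2) to 722 (3 dpi replicate 2) for 4 against 3 dpi, 3 (4 dpi replicate 2) to 1402 (6 dpi replicate 3) for 6 against 4 dpi and 763 (6 dpi replicate 2) to 2577 (6 dpi replicate 3) for 6 against 1 dpi. The causes of these differences were not tested.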
